A study of Rattus norvegicus with 12 samples.

Results

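Aquaporins are membrane channels for water, and the 6 genes described here, Aqp1, Aqp3, Aqp4, Aqp7, Aqp8 and Aqp11, were taken by name from the gene spots of an Agilent whole rat genome array. They are 6 of 19394 distinct gene names on the array, and they were carried by 8 probes in 26 spots. Total RNA labelled as colonic epithelium came from male Wistar rats of 180 to 200 g, fed for 6 weeks on high protein or on normal protein. Each diet had 6 single-colour arrays, no other agent or genotype is named, and the protein content of the diets is not given in the sources used here. Nothing in the labels says that the replicates came from separate animals, so p-values measure only the spread between these samples. The labels also do not say from where along the colon a sample was taken.

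The family has 3 branches. Aqp1, Aqp4 and Aqp8 pass mainly water, and Aqp8 also passes ammonia and hydrogen peroxide. Aqp3 and Aqp7 are aquaglyceroporins, which pass glycerol as well as water, and Aqp11 is a distant member that sits largely in the endoplasmic reticulum. In the colon Aqp3 lies in the basolateral membrane of surface epithelial cells, Aqp4 is also basolateral, and Aqp8 is found in surface absorptive cells. Aqp1 is best known from capillary endothelium and red blood cells, and Aqp7 from adipocytes, where it releases glycerol made during fat breakdown. Hox genes are expressed in order along the gut: in rodents Hoxb13 marks the distal end of the colon, while Hoxb6 and Hoxb7 are higher towards its proximal part.

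The promoters of Aqp3 and Aqp8 are shown because these genes varied most between arrays among the 5 aquaporins that could be tested. Both are the 250 bases before the annotated gene start in RefSeq's GRCr8 assembly, read 5′ to 3′ on the gene's strand. Capitals mark every match to TATAAA, the core of the TATA box, or to AATAAA, which on its other strand holds the TTTAT core bound by Cdx and posterior Hox proteins. Both strands were searched.
Aqp3 (chr5:61040684-61040933, minus strand): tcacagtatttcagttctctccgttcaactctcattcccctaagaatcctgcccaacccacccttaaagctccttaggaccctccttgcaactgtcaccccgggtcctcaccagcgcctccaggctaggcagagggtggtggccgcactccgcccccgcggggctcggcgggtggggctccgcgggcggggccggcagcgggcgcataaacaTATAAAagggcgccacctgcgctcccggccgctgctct
Aqp8 (chr1:187424193-187424442, plus strand): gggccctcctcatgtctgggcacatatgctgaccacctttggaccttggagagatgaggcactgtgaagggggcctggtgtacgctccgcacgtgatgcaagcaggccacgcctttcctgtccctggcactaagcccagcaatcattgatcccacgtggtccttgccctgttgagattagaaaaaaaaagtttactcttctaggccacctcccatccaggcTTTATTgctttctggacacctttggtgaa
The Aqp3 promoter held TATAAA on the gene's strand, 38 to 33 bases before the start, and no AATAAA. It did hold the shorter ATAAA, which reads TTTAT on the other strand, within that TATAAA and just upstream of it. So the TTTAT core itself was present in both promoters. The Aqp8 promoter held AATAAA on the opposite strand, which reads TTTATT on the gene's strand, 29 to 24 bases before the start. Of 33469 rat promoters cut to the same length, 12.9% held TATAAA and 19.5% held AATAAA on either strand. GC content was 65.2% for Aqp3 and 53.6% for Aqp8, beside a median of 51.2% over all promoters. In the same assembly Aqp3 and Aqp7 lie next to each other on chromosome 5, with 1 non-coding locus between them. A match describes these letters and was not tested as a binding site.

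Detection was read from the deposited spot flags, with a flag of 100 taken as good. The flags do not follow signal above local background alone. Aqp8 on high protein 4 was not good at a signal of 46, where Aqp7 on normal protein 1 was good at 34. Aqp1, Aqp3 and Aqp11 were flagged good on 12 of 12 arrays. Aqp8 was good on 4 high protein arrays and 5 normal protein arrays. Of the 3 Aqp4 probes, A_44_P561166 was good on 4 high protein and 4 normal protein arrays, and A_64_P036063 and A_64_P018751 on none, so only the first stands for the gene. Aqp7 was good on 2 high protein and 2 normal protein arrays, below the minimum of 6 arrays, and was not tested. The 5 other genes are those that passed this filter on dim signal. No member spot held saturated pixels. By a looser measure, signal above the 95th percentile of the negative control spots, Aqp8 and A_44_P561166 stood above on 12 of 12 arrays and Aqp7 on 11. By that measure A_64_P036063, flagged good on none, also stood above on 11, and A_64_P018751 on 3. Among the 6 other aquaporin probes on the array, Aqp12a was good on 9 arrays, Mip on 1, Aqp2 on 1, and Aqp5, Aqp6 and Aqp9 on none. All levels given are normalized log2 intensities, and levels of different probes are not comparable with each other.

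Samples differed in ways that bear on what follows. The epithelial marker list (Epcam, Cdh1, keratins, villin and others) was measured for 11 of 11 genes, with a mean level of 11.67 to 12.27 on high protein arrays and 11.72 to 12.35 on normal protein arrays. All 9 smooth muscle markers were also measured, at a mean of 10.80 to 11.89 on high protein and 11.58 to 12.22 on normal protein arrays, so the samples carried muscle transcripts too. The share of gene spots flagged good was 48.45% to 55.86% on high protein arrays and 42.67% to 54.14% on normal protein arrays. Hoxb13 and Hoxb6 split the arrays into sets that cut across the diets, as described below. In such bulk RNA, fewer cells of a type and less RNA per cell cannot be told apart.

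No aquaporin passed the test for a difference between the diets. In limma, 0 of the 5 tested members passed an adjusted p of 0.05, and 0 of all 10451 tested genes did (0%), with a smallest adjusted p of 0.68. Unadjusted, 694 genes (6.64%) had p under 0.05, 383 of them higher (3.66%) and 311 lower (2.98%) on high protein, and 0 of these were aquaporins. The levels of every tested member overlapped between the diets, where 0.383% of all tested genes did not. With 6 arrays for each diet, the array number sets how small a difference could be seen.

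Aqp1, the water channel of endothelium and red cells, lay between 8.18 and 9.46 (median 8.82) on high protein and between 8.40 and 9.29 (median 8.92) on normal protein. The highest array was high protein 3 and the lowest high protein 2, so the high protein range enclosed the other. Its averages were 8.77 ± 0.47 for high protein and 8.89 ± 0.31 for normal protein (SD, n = 6 each), a difference of -0.12 ± 0.21 (SE) with a 95% interval of -0.57 to 0.33 (limma adjusted p = 0.90). As a ratio that interval runs from 0.674 to 1.26.

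Aqp4, a water channel that is the main aquaporin of glia and is also found in gastrointestinal epithelium, was dim. It lay between 6.40 and 7.08 (median 6.87) on high protein and between 6.10 and 7.14 (median 6.97) on normal protein, with its lowest value on normal protein 6. The 4 arrays on which it was not flagged good were high protein 3, high protein 4, normal protein 3 and normal protein 6. The difference was -0.07 ± 0.18 (SE), with a 95% interval of -0.46 to 0.31 (limma adjusted p = 0.93). Its signals above local background were only 12 to 116 intensity units. The offset of 50 added in background correction draws such values together, so this interval bounds a compressed difference. With a floor in place of the offset the difference was -0.06, and its limma unadjusted p was 0.88 against 0.68.

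Aqp8, the channel for water and ammonia, spanned several doublings within each diet. It lay between 6.31 and 9.53 (median 8.05) on high protein and between 6.13 and 9.79 (median 8.12) on normal protein. The 3 lowest arrays, high protein 3, high protein 4 and normal protein 6, were the ones where its spot was not flagged good. By the flags their values are taken as upper bounds. Their signals above local background were 30, 46 and 13, against negative control 95th percentiles of 13.4, 11.4 and 10. High protein arrays averaged 7.91 ± 1.24 and normal protein arrays 8.001 ± 1.23 (SD, n = 6 each). The difference was -0.09 ± 0.63 (SE), with a 95% interval of -1.45 to 1.27 (limma adjusted p = 0.98), or 0.366 to 2.41 as a ratio. That ratio is compressed by the offset too, most on the dim arrays.

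Aqp3, the basolateral channel for water and glycerol, was the most variable member. On high protein it was measured at 10.74, 11.13, 6.98, 9.30, 11.71 and 12.71 in replicates 1 to 6, against 11.82, 12.29, 12.12, 11.08, 11.49 and 8.02 on normal protein. In signal above local background, before normalization, this was 84 to 10020 intensity units on high protein and 182 to 5047 on normal protein. High protein 3, high protein 4 and normal protein 6 were low, and the other arrays of both diets lay within 10.74 to 12.71. Its SD over the 12 arrays was 1.78, above that of 99.7% of the tested genes, and that of Aqp8 was 1.18, above 98.96%. The 10 Aqp3 spots of an array had an SD of 0.13 to 0.38, which covers spotting error only.

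Aqp3 averaged 10.43 ± 2.03 on high protein and 11.14 ± 1.59 on normal protein (SD, n = 6 each), a difference of -0.71 ± 0.93 (SE) with a 95% interval of -2.71 to 1.30 (limma adjusted p = 0.86). Single arrays moved it: the difference was -0.02 without high protein 3 and -1.33 without normal protein 6. Within the 3 slides, each with 2 arrays of each diet, it was -1.03, 1.25 and -2.34, so the direction was not shared by the slides.

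Aqp11, the endoplasmic reticulum member, was the steadiest. It lay between 6.80 and 7.49 (median 7.30) on high protein and between 7.16 and 7.40 (median 7.24) on normal protein, and only high protein 3 was below the normal protein range. The difference was -0.01 ± 0.10 (SE), with a 95% interval of -0.24 to 0.22 (limma adjusted p = 0.98), or 0.849 to 1.16 as a ratio. Its signals were 60 to 149 intensity units, so the offset of 50 compresses this ratio as well. Among the family members outside these 6, Aqp12a was the one tested, with a difference of 0.20 ± 0.11 (SE; limma adjusted p = 0.73).

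**Figure D1:**
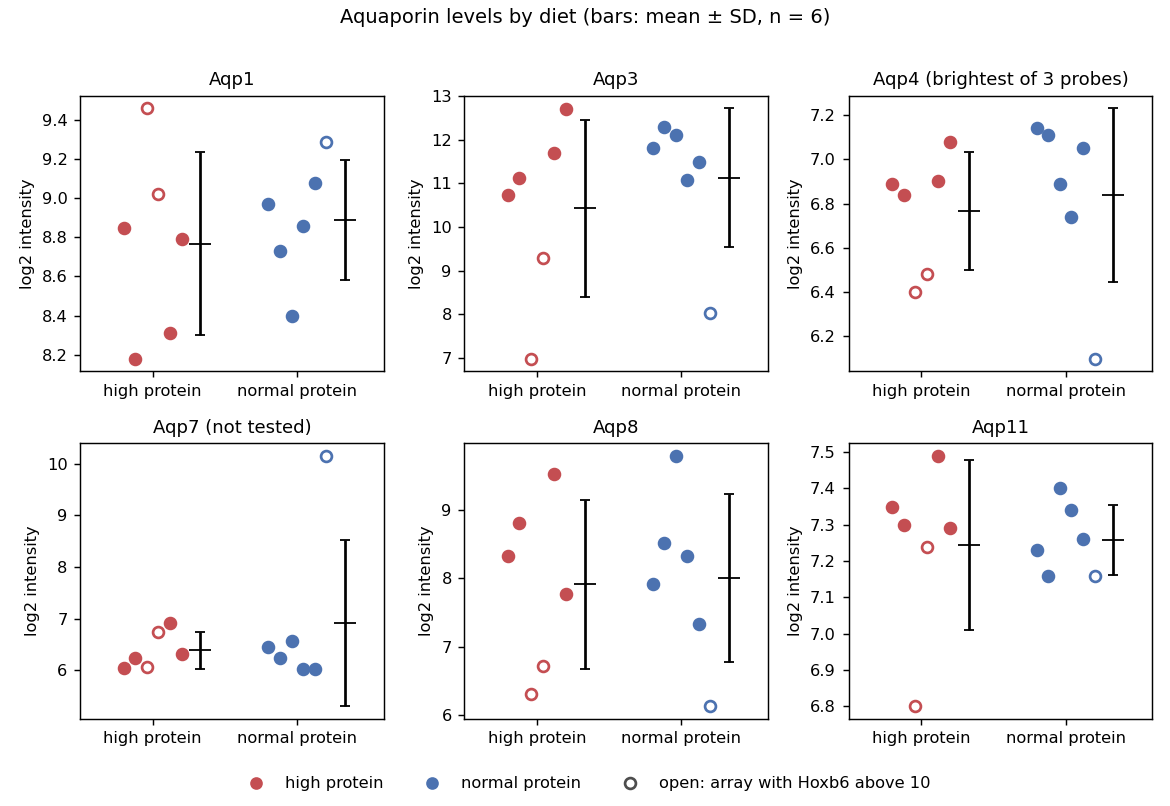
Normalized log2 intensity of the 6 aquaporins on each array, high protein left of normal protein, with the mean ± SD of 6 arrays beside each group; open circles are the 3 arrays whose Hoxb6 level exceeded 10. The diets overlap in every panel, the open circles are the lowest points of Aqp3, Aqp4 and Aqp8, and Aqp7 stands at 10.15 on normal protein 6 alone.

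The low values of Aqp3, Aqp4 and Aqp8 lay on arrays of high Hoxb6. Hoxb6 was 10.87 on high protein 3, 10.82 on high protein 4 and 10.95 on normal protein 6, against 6.51 to 7.49 on the other 9 arrays. Hoxb7 was high on the same 3 arrays, at 10.81, 10.44 and 10.29, against 6.38 to 7.08. Hoxb13 was between 11.996 and 12.56 on 6 arrays (high protein 1, 2, 5 and 6 and normal protein 1 and 2) and between 5.83 and 9.32 on the other 6. Hoxb13 was low on all 3 arrays of high Hoxb6, at 6.12, 7.49 and 6.18. Normal protein 3, 4 and 5 were low for both genes, and no high protein array was. Because the arrays fall into separate sets, the levels are given by set, with no correlation and no test.

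Aqp3 was 6.98, 9.30 and 8.02 on high protein 3, high protein 4 and normal protein 6, and 10.74 to 12.71 (median 11.71) on the 9 arrays of low Hoxb6. The 2 sets were separated by a gap of 1.44. Aqp8 was 6.31, 6.71 and 6.13 on these 3 arrays, where it was not flagged good, and 7.33 to 9.79 (median 8.33) on the 9 others. Aqp4 was 6.40, 6.48 and 6.10, again not flagged good, and 6.74 to 7.14 (median 6.90) on the 9 others. All 3 genes were lower on the Hoxb6-high arrays without overlap, where 2.71% of all tested genes were lower and 2.02% higher without overlap. Aqp8 and Aqp4 were flagged good on 0 of those 3 arrays and passed the filter through the other arrays, where they had to be higher, so nothing is read from their count. Aqp3 was flagged good on every array, and of the 7203 genes flagged good on all 12 arrays 2.76% were lower without overlap. Aqp1 and Aqp11 overlapped between the sets. Aqp1 ran the other way, at 9.46, 9.02 and 9.29 on the 3 arrays and 8.18 to 9.08 on the 9 others, and Aqp11 was at 6.80, 7.24 and 7.16 against 7.16 to 7.49. Aqp3 was lower without overlap under each background correction and scaling tried and in the deposited value table with its IDs moved by 1 row. In these runs 2.52% to 2.9% of all tested genes were lower without overlap. Aqp8 and Aqp4 were lower without overlap there too, with the same limit from the filter. The mean of the epithelial list was 11.67 on high protein 3, 12.27 on high protein 4 and 11.72 on normal protein 6. On the 9 others it was 11.87 to 12.35. Whether epithelial content bears on these aquaporin levels was not tested.

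By Hoxb13, all 5 tested members overlapped between the 6 high and 6 low arrays, where 3.57% of all tested genes did not (1.88% higher and 1.68% lower on the high arrays). Aqp3 was 10.74 to 12.71 on the Hoxb13-high arrays and 6.98 to 12.12 on the others, and Aqp8 was 7.77 to 9.53 and 6.13 to 9.79. The highest Aqp8 array, normal protein 3, had a low Hoxb13 of 8.26. It was the dimmest array, with 42.67% of gene spots flagged good and a 75th percentile signal of 133, against 222 to 387 elsewhere. Before normalization its Aqp8 signal was 454, below the 669 of high protein 5. On normal protein 3, 4 and 5, low for both Hox genes, Aqp3 was 11.08 to 12.12, Aqp4 6.74 to 7.05 and Aqp8 7.33 to 9.79, against 10.74 to 12.71, 6.84 to 7.14 and 7.77 to 9.53 for the same genes on the Hoxb13-high arrays.

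**Figure D2:**
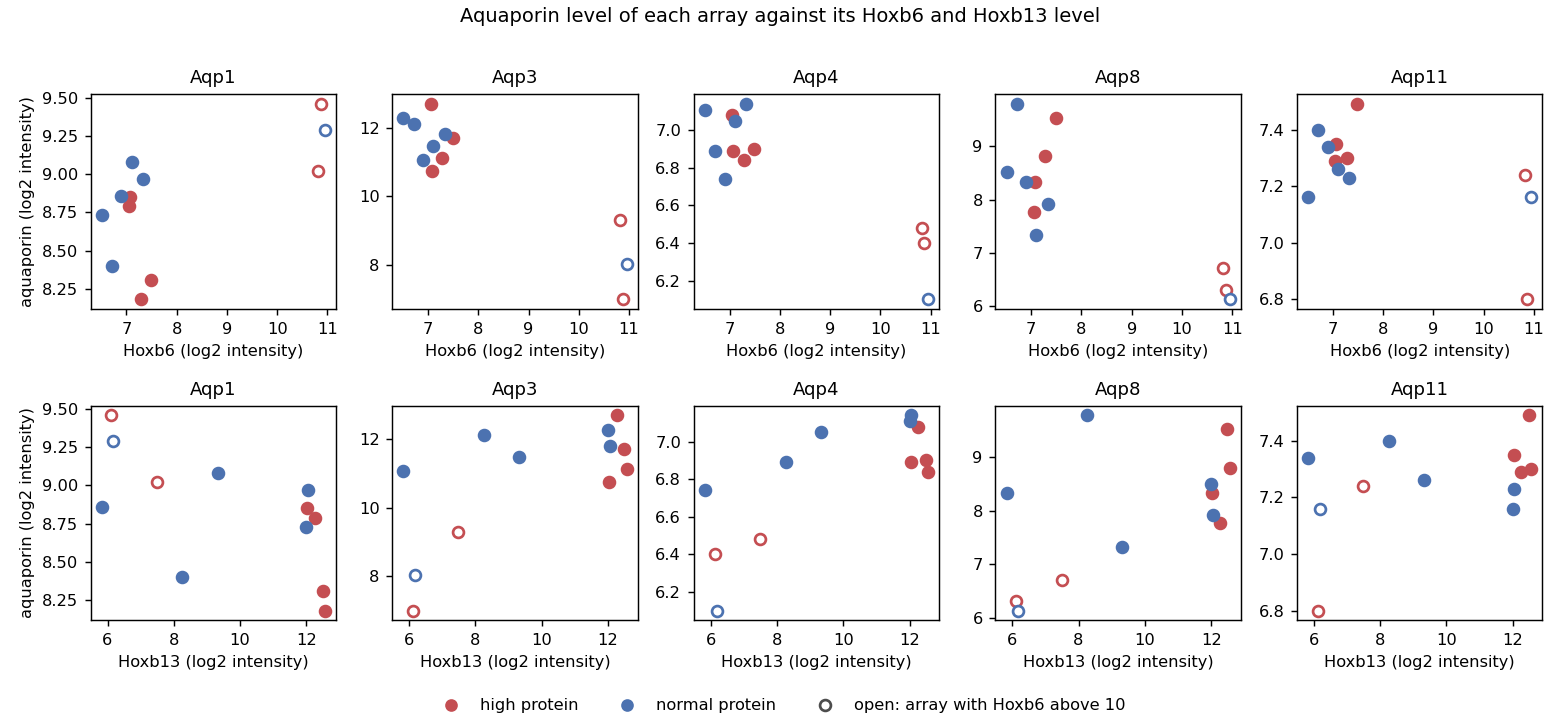
Level of each tested aquaporin (y axis, log2 intensity) against the Hoxb6 level (top row) and the Hoxb13 level (bottom row) of the same array, colour by diet, open circles for the 3 arrays of high Hoxb6. Those 3 arrays lie below all others for Aqp3, Aqp4 and Aqp8 and among the highest for Aqp1, while arrays of low Hoxb13 include both low and high aquaporin values.

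The diet comparison was repeated with the Hox levels taken into account. With Hoxb13 and Hoxb6 as covariates the difference of Aqp3 was -0.35 ± 0.47 (SE), and on the 4 high protein and 5 normal protein arrays of low Hoxb6 it was -0.19 ± 0.37 (SE). On those 9 arrays Aqp3 averaged 11.58 ± 0.86 on high protein (SD, n = 4) and 11.76 ± 0.49 on normal protein (SD, n = 5). Aqp8 turned to 0.48 ± 0.49 (SE) with the covariates and 0.23 ± 0.47 (SE) on the 9 arrays, each with an interval that held 0. The other 3 members stayed between -0.27 and 0.08 in both fits, and neither fit called any of the 10451 genes (limma with Benjamini-Hochberg adjustment). On the 9 arrays the intervals still allowed a difference of -1.01 to 0.64 for Aqp3 and -0.80 to 1.27 for Aqp8.

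**Figure D3:**
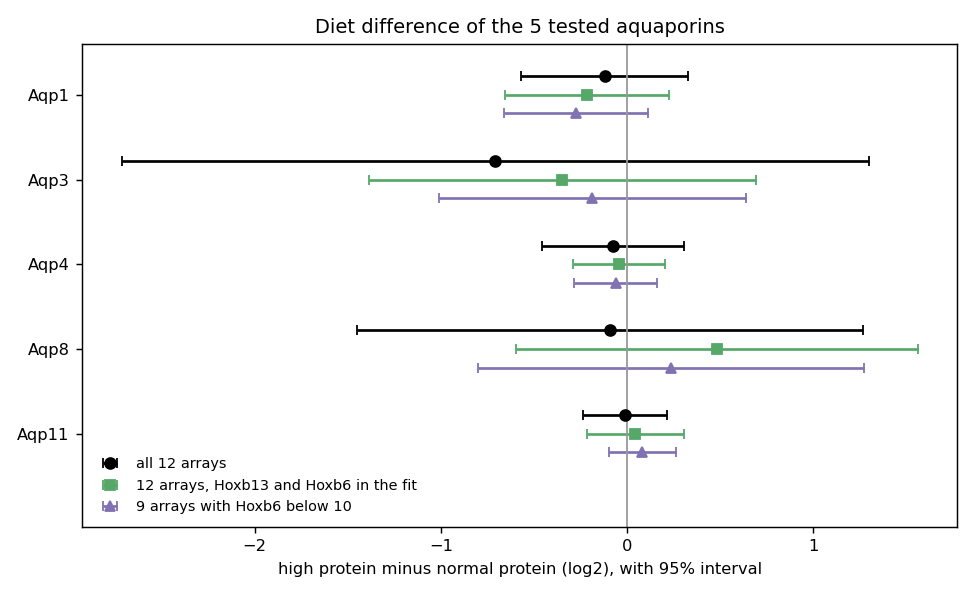
Diet difference of the 5 tested aquaporins (high protein minus normal protein, log2, with 95% interval) over all 12 arrays, with Hoxb13 and Hoxb6 in the fit, and over the 9 arrays of low Hoxb6. Every interval holds 0, and that of Aqp3 spans -1.01 to 0.64 over 9 arrays, narrower than the -2.71 to 1.30 over 12.

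Aqp7, the glycerol channel of adipocytes, was flagged good on high protein 4, high protein 5, normal protein 1 and normal protein 6, and stood far higher on the last. On high protein it was 6.04, 6.24, 6.07, 6.74, 6.92 and 6.31 in replicates 1 to 6, against 6.46, 6.23, 6.57, 6.03, 6.02 and 10.15 on normal protein. Normal protein 6 had a signal of 930 intensity units above local background, where the 11 other arrays had at most 62. Its lead of 3.24 over the next array was matched or passed by 35 of 26038 probes with an accession (0.134%). That share covers leads on normal protein 6 only, and leads on other arrays were not counted. Fitted without the filter on dim probes, the diet difference was -0.52 ± 0.61 (SE; limma adjusted p = 0.88 over 21910 genes).

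The same array held high levels of adipocyte genes, chosen here from the adipocyte list after their values were seen. Adipoq (adiponectin) was 13.28 on normal protein 6 and at most 9.36 on the other 11 arrays. Fabp4, the adipocyte fatty acid binding protein, was 13.14 against at most 9.35, and Retn (resistin) 13.42 against at most 8.46. Cidec, a lipid droplet protein, was 9.83 against at most 6.998. The mean over the 4 measured genes of the 7-gene list was 13.66 on this array and 7.13 to 9.63 on the others (7.29 to 9.63 on high protein, and 7.13 to 13.66 on normal protein with it). Plin1 and Lep were dim on all arrays, with 6.51 and 6.44 on normal protein 6. The enzymes of glycerol handling Gpd1, which makes glycerol 3-phosphate, and Dgat2, which makes triglyceride, were also highest there at 12.53 and 12.21, and were named after their values were seen. Whether adipose tissue in this sample accounts for its Aqp7 was not tested.

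**Figure D4:**
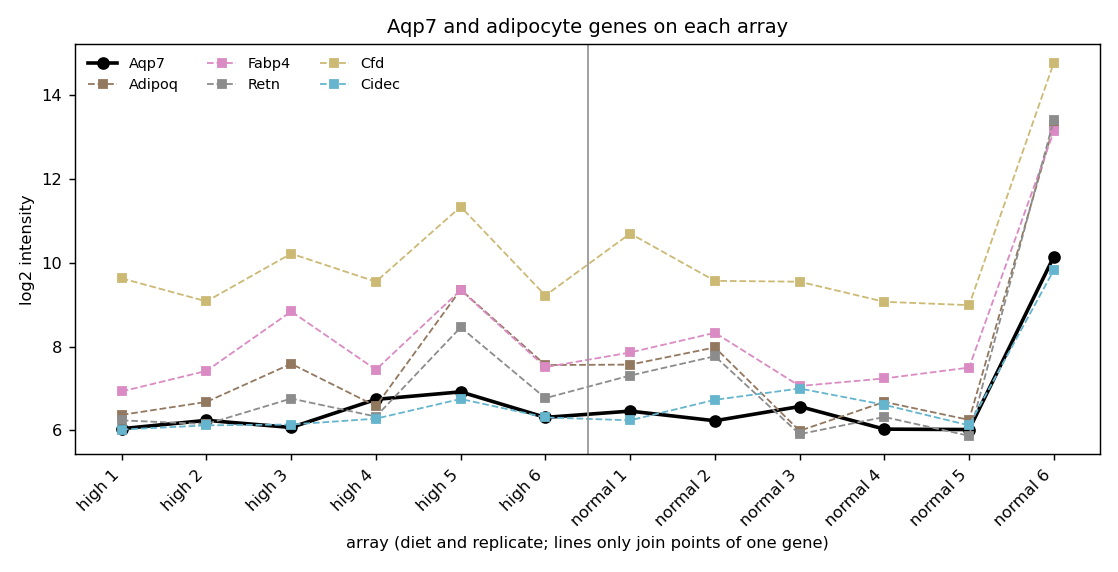
Log2 intensity of Aqp7 (black) and of 5 adipocyte genes on each array, high protein replicates left of normal protein replicates. All 6 genes have their highest value on normal protein 6, where Aqp7 is 10.15, and high protein 5 has the next highest value of Adipoq, Fabp4, Retn and Cfd.

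Aqp1 was set beside markers of the cells that are known to carry it. The red blood cell list (3 of 8 genes measured) had a mean of 9.78 to 10.77 on high protein arrays and 8.67 to 11.27 on normal protein arrays. Its gene Hbb, beta globin, named after its values were seen, was highest on normal protein 6 (13.35) and high protein 3 (12.99), the arrays that were also highest for Aqp1, but it was 11.80 on high protein 4, the fourth highest for Aqp1. The endothelial list (9 of 13 genes measured) had a mean of 8.08 to 8.40 on high protein arrays and 7.998 to 8.96 on normal protein arrays, highest on normal protein 6. For Aqp4, the list of enteric glia and neurons (4 of 10 genes measured) had a mean of 8.50 on normal protein 6 and 7.09 to 7.77 elsewhere. That lead came from S100b alone, at 11.72 there and at most 8.15 elsewhere. Without S100b, which was singled out after its values were seen, the mean was 7.43 on normal protein 6, within the 7.08 to 7.64 of the other arrays. The part of these cells in the aquaporin levels was not tested.

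Aqp1 and Aqp8 ran in opposite directions on the 9 arrays of low Hoxb6. The Pearson correlation was -0.838 (exact permutation p = 0.00506) and Spearman's rho was -0.833 (exact permutation p = 0.00827), both two-sided over 9 arrays. Among the 10 pairs of tested aquaporins, all computed after the values were seen, this was the strongest, and its adjusted p by exact permutation was 0.0506 for Pearson and 0.0827 for Spearman, which does not pass 0.05. Without the 2 arrays farthest from the median of Aqp1 the correlation was -0.936 over 7 arrays. The next pairs were Aqp8 with Aqp11 (r = 0.657), Aqp4 with Aqp11 (r = -0.636) and Aqp3 with Aqp4 (r = 0.636), each with an adjusted exact permutation p of 0.172. For Aqp8 with Aqp11, r was 0.0859 without the 2 farthest arrays. A slide held at most 4 arrays, too few for a value within slides.

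**Figure D5:**
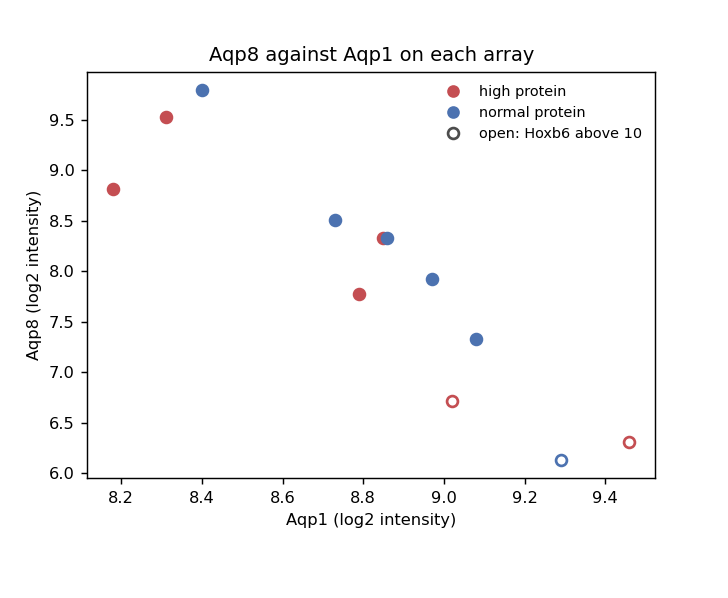
Aqp8 against Aqp1 (both log2 intensity) on each of the 12 arrays, colour by diet, open circles for the 3 arrays of high Hoxb6. Over the 9 filled points r is -0.838; the open points lie at the end of high Aqp1 and low Aqp8.

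The genes whose levels followed each aquaporin most closely over the 12 arrays are named by Pearson r, as a description over arrays that share their normalization and their Hox sets. For Aqp3 these were Cd24, Klf3, Rassf1, Rflnb and Mptx1, with r of 0.923 to 0.973, and 0.377 to 0.834 over the 9 arrays of low Hoxb6. Cd24, a surface glycoprotein of epithelial cells, was 12.1 to 12.9 on the 3 Hoxb6-high arrays and 13.6 to 14.3 on the 9 others, and its r with Aqp3 was 0.973 over 12 arrays and 0.686 over the 9. Mptx1, a mucosal pentraxin, was 6.16 to 8.59 against 10.9 to 14.4, and its r dropped to 0.377 on the 9 arrays. For Aqp4 they were Cyba, Sfrp2, Hoxa13, Adh1c and C1qtnf3, with r of 0.911 to 0.944, and 0.312 to 0.718 over the 9 arrays. All 5 were lower without overlap on the Hoxb6-high arrays, beside 2.71% of all tested genes, with Hoxa13 at 7.03 to 9.03 against 10.2 to 10.9. They were chosen by likeness to Aqp4, itself lower and not flagged good on those arrays, so nothing is read from that count.

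For Aqp8 the closest genes included Muc1, Tprn, Btnl8 and Ush1c, with r of 0.913 to 0.933 over 12 arrays and 0.822 to 0.910 over the 9 of low Hoxb6. Muc1 is a membrane mucin and Ush1c (harmonin) links the tips of brush border microvilli. These 9 arrays are among the 12 by which the genes were chosen, so the r over the 9 is no separate test of likeness. For Aqp1 the closest were Yaf2, Bmyc, Phtf1, Abcc9 and Frzb, with r of 0.885 to 0.915, and 0.772 to 0.895 over the 9 arrays. For Aqp11 they were B4galt7, Sgk1, Rffl, Dffa and Ppp6r2, with r of 0.863 to 0.894, and 0.556 to 0.850 over the 9 arrays. Sgk1, the kinase through which aldosterone raises sodium uptake, was 6.78 on high protein 3, the array of lowest Aqp11, and 7.79 to 9.54 on the others.

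Genes that move the ions water follows were read from a list of 37 names, of which 30 were measured. None passed the adjusted threshold for diet, 19 had a difference above 0 and 11 below, and the median was 0.05 beside 0.01 over all tested genes. Without normal protein 6 the list had 14 above 0 and 16 below. Slc4a7, a sodium bicarbonate cotransporter, had the only unadjusted p under 0.05, at 0.59 ± 0.25 (SE; limma adjusted p = 0.73). The chloride bicarbonate exchanger Slc26a3 differed by -0.37 ± 0.30 (SE), the sodium proton exchanger Slc9a3 by -0.30 ± 0.24 (SE) and the chloride channel Cftr by 0.10 ± 0.26 (SE). The sodium channel subunit Scnn1b differed by 0.16 ± 0.15 (SE), and Scnn1g was too dim to be tested.

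Atp12a, the proton potassium pump of the distal colon, differed most in size among these, at 10.32 ± 2.90 on high protein and 7.76 ± 2.21 on normal protein (SD, n = 6 each), a difference of 2.56 ± 1.31 (SE; limma adjusted p = 0.73). It was 9.48 to 12.78 on the 6 Hoxb13-high arrays and 5.83 to 8.03 on the other 6, without overlap, and 4 of those 6 high arrays were on high protein. The ion transport genes lower without overlap on the 3 Hoxb6-high arrays, numbered 5 of 30 beside 2.71% of all genes. They were Scnn1a, Atp1b1, Best2, Ano1 and Kcnq1, named after their values were seen: subunits of the sodium channel and the sodium pump, a pair of calcium-activated chloride channel genes and a potassium channel. All 5 were flagged good on the 3 arrays. Scnn1a, Best2 and Ano1 were also higher without overlap on the Hoxb13-high arrays, as were Atp12a and Slc5a8 of the same list. Car1 and Car2 of the list were lower there without overlap. Of all tested genes 1.88% were higher and 1.68% lower in that way, and the aquaporins overlapped. Best2, for example, was 7.40, 7.33 and 6.92 on the 3 Hoxb6-high arrays, just under the lowest of the others at 7.43, while by Hoxb13 it was 8.56 to 10.11 on the high arrays and 6.92 to 7.73 on the rest.

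Of 22 receptors and regulators tied to aquaporins, 18 were measured and none passed the adjusted threshold, with 4 differences above 0 and 14 below and a median of -0.08. Cdx2, the intestinal homeobox factor, had the only unadjusted p under 0.05, with a difference of -0.44 ± 0.20 (SE; limma adjusted p = 0.73). Pparg, a nuclear receptor that drives adipocyte genes and is also abundant in colonic epithelium, was 10.44, 10.77 and 11.65 on the 3 Hoxb6-high arrays and 9.21 to 10.33 on the others. It was the 1 gene of the 18 that was higher there without overlap, beside 2.02% of all tested genes, and was named for that. Pparg was also lower without overlap on the Hoxb13-high arrays, at 9.21 to 9.58 against 10.3 to 11.65 on the others. Of all tested genes 1.68% were lower in that way. Of 16 glycerol handling genes 10 were measured, none passed, 2 differences lay above 0 and 8 below, and the median was -0.27. Mgll of this list had the same pattern as Pparg and was named for that. It was 7.75 to 9.28 on the 3 Hoxb6-high arrays and 6.74 to 7.69 on the others. By Hoxb13 it was 6.74 to 7.30 on the high arrays and 7.60 to 9.28 on the rest. The list's mean level was 9.34 on normal protein 6, the array of highest adipocyte genes, and 7.68 to 8.08 on the other 11. Without that array 4 differences lay above 0 and 6 below, with a median of -0.05. Mogat2, which re-esterifies monoacylglycerol, had the smallest p among them, with a difference of -0.34 ± 0.10 (SE; limma adjusted p = 0.68). It was 6.65 to 7.04 on high protein and 6.74 to 7.25 on normal protein.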

How the data were processed

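Each of 12 single-colour Agilent arrays was read with GenePix Pro 6.1.0.4 at 532 nm and a photomultiplier gain of 600, per the file headers. The deposited scanner tables hold linear intensity values per spot (mean pixel and median local background), not normalized. They also give the deposited percent of saturated pixels of each spot and spot flags (100 for good). The series value table holds log2 values that the authors deposited; RMA is named, without a version, in the submitters' processing notes, and neither its background step nor its centring is stated there. Its column medians were 4.39 to 4.41 on high protein and 4.36 to 4.45 on normal protein arrays. Its IDs are displaced by 1 row: over bright probes r with the scanner values was 0.996 to 0.998 after moving them and between -0.01 and 0.01 as given, so it was used only moved, as an alternative. Another 6 columns of per-array values had no sample and were not used.

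Background was corrected with normexp (offset 50) and arrays were quantile normalized on the log2 scale. Control spots were dropped and spots of a probe averaged. Testing required a good flag on at least 0.5 of a probe's spots on 6 or more of the 12 arrays, and the brightest probe stood for a gene. This gave 10451 genes, named through RefSeq accessions of GRCr8 (18355 of 26038 probes matched) or else by the array's name. The diet fit used lmFit and eBayes of limma 3.58.1 (R 4.3.3), with Benjamini-Hochberg adjustment over all tested genes at 0.05, and intervals are 95%. The fit was tested on simulated data. No genome coordinates from the files were used.

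Arrays were split by Hoxb6 or Hoxb13 at the largest gap between neighbouring values (75% and 39.8% of the range). The members and lists were chosen with earlier results of these data known. Named genes are all members, Hoxb13, Hoxb6, Hoxb7, the 5 closest genes of each tested member by Pearson r (1 is not reported here), 6 fixed ion transport genes, and in each list up to 3 genes with an unadjusted p under 0.05. Other names (marker genes, Pparg, Mgll, Gpd1, Dgat2 and the ion transport genes that did not overlap between Hox sets) were chosen after their values were seen. Alternatives covered background, scaling, filter, slide, replicate block, Hox covariates, probe choice, array weights, the value table and each array left out.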

Additional observations from a re-analysis of the deposited data

Results flagged for a closer look

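In all, 3 values lay far from the other 5 arrays of their diet by Dixon's test, out of 16 groups looked at, where chance flags about 1 group in 20. Aqp3 on normal protein 6 was 8.02, with the nearest array of that diet at 11.08. Aqp7 on normal protein 6 was 10.15, with the nearest at 6.57; the mean of the adipocyte list was also highest on that array. Aqp11 on high protein 3 was 6.80, with the nearest at 7.24. Both arrays belong to the 3 of high Hoxb6.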

How the results depend on the processing

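No alternative called an aquaporin, and the count of genes past the threshold for diet stayed at 0 except within slide 3, where 1 gene passed (Bik, 5.89, limma adjusted p = 0.00597, named after its value was seen). With 75th percentile scaling, 318 genes were higher and 481 lower at an unadjusted p under 0.05, against 383 and 311. Signs of differences that passed no test turned: within slide 1 Aqp11 was 0.0114; within slide 2 Aqp3 was 1.25, Aqp4 0.20, Aqp8 0.51 and Aqp11 0.0566; within slide 3 Aqp1 was 0.0876. Aqp8 and Aqp11 also turned with Hoxb13 and Hoxb6 as covariates (0.48 and 0.0457), with array weights (0.0612 and 0.0231) and without the 3 arrays of high Hoxb6 (0.23 and 0.083), the last chosen after seeing the data; Aqp8 turned in the moved value table (0.12). The cause was not tested. Leaving out 1 array at a time gave -0.26 to -0.002 for Aqp1, -1.33 to -0.02 for Aqp3, -0.22 to -0.002 for Aqp4, -0.47 to 0.27 for Aqp8 and -0.0600 to 0.0786 for Aqp11. The fit with the replicate block called 0 genes and gave the same differences, with a limma adjusted p of 0.87 for Aqp3 and 0.97 for Aqp8. Deviations of same-numbered arrays correlated at 0.396, 0.316, -0.10, 0.245, -0.03 and -0.11. Numbers 1, 2 and 4 correlated best with their own number and 3, 5 and 6 did not, so the numbers were not taken to pair the samples. Requiring good flags on all 12 arrays left Aqp4 and Aqp8 out. Under each scaling run 3 aquaporins were lower without overlap on the Hoxb6-high arrays, where 2.7% to 2.9% of all tested genes were. Nothing is read from Aqp4 and Aqp8 in that count, for the filter reason given with the Hox sets. Where Aqp4 and Aqp8 were not flagged good, the gap between the Hox sets is taken as a lower bound.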
